A study of Mus musculus with 4 samples.

Results

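Glutamatergic_L2_IT_RSPv is the name of 1 of 67 cell types whose share of each spot was deposited for 4 sagittal mouse brain sections. The name, shortened to L2_IT_RSPv from here on, is read as layer 2 intratelencephalic neurons of the ventral retrosplenial area. A spot is a small patch of tissue on a barcoded slide that can hold several cells or parts of cells. Spots were chosen by the deposited share itself: a spot was taken to hold the type where its share was above 0. By this rule 1826 of 14809 spots held it, or 12.3%. Everything below that uses the share is therefore a description of the deposited values and carries no test.

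The sections came from wild-type C57 mice, 1 section for each of 4 groups. In chronic social defeat stress (CSDS), mice are defeated repeatedly by an aggressor, and a social interaction test then separates susceptible from resilient animals. The ketamine-treated susceptible mouse received ketamine intraperitoneally at 10 mg/kg, and brains were collected 7 days after ketamine. The susceptible, resilient and control mice received saline, and the labels do not state what the control had been exposed to. With 1 section per group, the mouse, its section, the slide and the cutting plane cannot be told apart from the group.

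The retrosplenial cortex lies along the midline behind the cingulate cortex and is known for its part in navigation and memory, with connections to the hippocampal formation and the anterior thalamus. Intratelencephalic neurons send their axons to other cortical areas and to the striatum but not to the thalamus or brainstem, and those of layer 2 form a thin sheet near the surface of the cortex. When a spot's RNA is divided among the types of a reference set, neurons that the set does not list can be given only to a listed type or to no type. Most deposited neuronal names refer to cortical layers, retrosplenial, entorhinal and other parahippocampal areas, the hippocampus and subiculum, and interneuron classes, and apart from V3d, whose meaning the files do not give, none names the thalamus, the midbrain, the hindbrain or the cerebellum. The tables hold shares and no gene counts, so the marker genes of the label could not be examined, and what neurons lay in its spots was not tested.

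The sections held 3477 spots in the ketamine-treated, 3443 in the susceptible, 4156 in the resilient and 3733 in the control animal, and sequencing depth is unknown. The lowest share above 0 of any type was 10.1% of a spot, so small amounts do not appear and types compete for room within a spot. The only regional annotation is a deposited cluster number from 1 to 17. Clusters 2, 6 and 9 are called the cortical layer clusters here because an earlier reading of these data took them as led by cortical layer types. Over all sections, the 10 types with CTX in their names averaged at least 20% of a spot in them and in no other cluster.

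Most of the L2_IT_RSPv share lay outside the cortical layer clusters in every section. The part of its summed share found outside was 88.2% in the ketamine-treated, 93.2% in the susceptible, 92.3% in the resilient and 86.9% in the control section. The 10 CTX-named types summed had 6.08% of their share outside in the ketamine-treated, 4.82% in the susceptible, 4.22% in the resilient and 4.58% in the control section. Their low values are largely fixed by how the clusters were picked. Pooled over the sections, the part outside was 90.0% for the label, 88.3% for the non-neuronal types, 84.4% for the GABAergic types and 83.7% for the hippocampal types. It was 58.0% for the 10 types with ENT in their names, read as entorhinal. The 12 glutamatergic types named for neither cortical layers nor retrosplenial, entorhinal or hippocampal areas had 86.5%. The label therefore lay about as far outside as the non-neuronal, GABAergic, hippocampal and these 12 types, and further outside than the entorhinal ones. By number of holding spots, 403 of 2336 outside spots held it in the ketamine-treated section, 418 of 2396 in the susceptible, 406 of 2925 in the resilient and 448 of 2627 in the control. Inside the cortical layer clusters it was held by 49 of 1141, 28 of 1047, 20 of 1231 and 54 of 1106 spots of the ketamine-treated, susceptible, resilient and control sections.

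The other retrosplenial types did not share this pattern. L2_IT_RSP_ACA, whose name gives the same layer and class for the retrosplenial and anterior cingulate areas, had 16.2% of its summed share outside in the ketamine-treated, 14.3% in the susceptible, 15.8% in the resilient and 22.5% in the control section. L5_PT_RSP_ACA, read as pyramidal tract neurons of layer 5, whose axons leave the telencephalon, had 25.5% outside in the ketamine-treated, 25.1% in the susceptible, 38.8% in the resilient and 23.6% in the control section. L3_RSP_ACA was found in 195 spots only, with 30.3% outside in the ketamine-treated, 49.3% in the susceptible, 52.8% in the resilient and 52.4% in the control section. In all 4 sections L2_IT_RSPv was the retrosplenial type with the highest part outside. Of 22 glutamatergic types held by at least 100 spots over all sections it had rank 6. The 5 above it were CR with 99.1% outside, DG with 98.1%, V3d with 96.4%, CA1 with 96.3% and L2_3_IT_ENTl with 91.0%. These 5 were named after their values were seen. DG and CA1 are hippocampal fields, and CR is read as Cajal-Retzius cells, which lie in layer 1 of the cortex and along the hippocampal fissure.

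**Figure D1:**
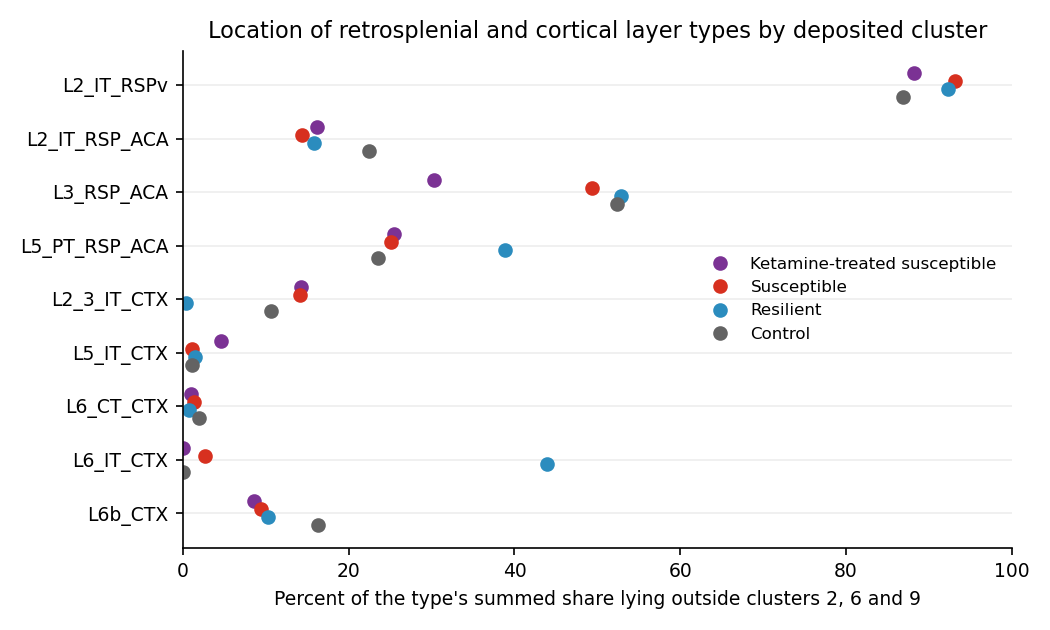
Percent of each type's summed share that lay outside clusters 2, 6 and 9, with 1 point per section, for L2_IT_RSPv, the other types with RSP in their names and types with CTX in their names. L2_IT_RSPv sits between 86.9% and 93.2%, while the 10 CTX-named types summed lay between 4.22% and 6.08%.

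In the tissue outside the cortical layer clusters the label was among the largest neuronal shares. Its mean over outside spots was 8.35% in the ketamine-treated, 8.30% in the susceptible, 5.29% in the resilient and 6.91% in the control section. It ranked 1 among neuronal types there in the ketamine-treated, susceptible and control sections and 2 in the resilient section, where Sst_Chodl had 6.15%. Sst_Chodl is named for a class of long-range somatostatin interneurons that is sparse in the cortex. Of all glutamatergic share outside, the label took 27.2% in the ketamine-treated, 25.8% in the susceptible, 19.2% in the resilient and 28.3% in the control section. Over whole sections its mean share was 6.36% in the ketamine-treated, 6.20% in the susceptible, 4.03% in the resilient and 5.60% in the control. Its rank among the 67 types was 3 in the ketamine-treated, 4 in the susceptible, 6 in the resilient and 3 in the control section.

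Clusters 1, 4 and 11 carried most of this. Together they held 81.2% of the label's summed share on 28.2% of the spots in the ketamine-treated section. The same clusters held 79.4% on 27.0% of spots in the susceptible, 80.4% on 37.2% in the resilient and 75.3% on 29.6% in the control section. These clusters were picked for holding the label, so its high part there follows from the choice. Pooled over the sections it came to 79.0% for L2_IT_RSPv, against 16.8% for L5_PT_RSP_ACA, 5.64% for L2_IT_RSP_ACA and 2.28% for L3_RSP_ACA. Other types lay there to a similar degree, with 86.5% for Sst_Chodl, 67.0% for CR, 66.5% for L5_PPP and 58.8% for Ndnf_HPF. The clusters other than these and the cortical layer clusters held the remaining 6.94% in the ketamine-treated, 13.8% in the susceptible, 12.0% in the resilient and 11.6% in the control section.

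Cluster 1 held the largest number of these spots in every section. Its leading types were Oligo and Astro, the myelin-forming oligodendrocytes and the astrocytes. Oligo averaged 21.6% of a spot there in the ketamine-treated, 25.3% in the susceptible, 31.6% in the resilient and 32.6% in the control section. L2_IT_RSPv came next and was the first neuronal type in all 4 sections, held by 184 of 501 spots in the ketamine-treated, 235 of 605 in the susceptible, 257 of 885 in the resilient and 345 of 929 in the control section. These were 36.7% of the cluster in the ketamine-treated section (exact Clopper-Pearson 95% interval 32.5 to 41.1), 38.8% in the susceptible (34.9 to 42.9), 29.0% in the resilient (26.1 to 32.2) and 37.1% in the control (34.0 to 40.3). Such intervals cover counting error only, and neighbouring spots are not independent. Of the neuronal share in cluster 1, the label made up 40.3% in the ketamine-treated, 39.3% in the susceptible, 28.0% in the resilient and 42.0% in the control section. The CTX-named types together averaged no more than 0.31% of a cluster 1 spot in any section.

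The sections differed widely in cluster 4. Its leading types were Astro, Sst_Chodl and, except in the resilient section, the label, and its CTX-named types were at 0 in all sections. The label was held by 105 of 311 spots in the ketamine-treated section and 90 of 254 in the susceptible, against 36 of 426 in the resilient and 18 of 72 in the control. As percentages these were 33.8 (28.5 to 39.3) in the ketamine-treated, 35.4 (29.6 to 41.7) in the susceptible, 8.45 (5.99 to 11.5) in the resilient and 25 (15.5 to 36.6) in the control section. The resilient percentage was the lowest. Spots are not replicates of a group, so these intervals do not test a difference between groups. The mean share in cluster 4 was 18.8% in the ketamine-treated, 21.3% in the susceptible, 4.11% in the resilient and 14.95% in the control section. Sst_Chodl averaged 24.3% of a cluster 4 spot in the ketamine-treated, 18.1% in the susceptible, 35.5% in the resilient and 17.7% in the control section. CR averaged 7.65% in the ketamine-treated, 10.4% in the susceptible, 12.2% in the resilient and 6.75% in the control section. Both were highest in the resilient section. Oligo averaged 2.35% of a cluster 4 spot in the ketamine-treated, 4.08% in the susceptible, 1.57% in the resilient and 14.6% in the control section. The part of tissue make-up in these differences was not tested.

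Cluster 11 was led by Astro and Oligo in the susceptible, resilient and control sections, and by Astro and the label itself in the ketamine-treated section. There 69 of 169 spots held the label in the ketamine-treated section, 22 of 72 in the susceptible, 51 of 237 in the resilient and 21 of 103 in the control. The mean share was 20.0% in the ketamine-treated, 13.9% in the susceptible, 8.18% in the resilient and 7.46% in the control section. The ketamine-treated section was the highest here, with 40.8% of spots holding the label (33.3 to 48.6). The same percentage was 30.6 in the susceptible (20.2 to 42.5), 21.5 in the resilient (16.5 to 27.3) and 20.4 in the control section (13.1 to 29.5). As in cluster 4, the intervals do not test a difference between groups.

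Cluster 7, named here after its values were seen, was even across the sections. It was led by Oligo, which averaged between 70.1% and 72.1% of a spot. The label was held by 25 spots in each of the 4 sections, which was 10.5% of cluster 7 in the ketamine-treated, 10.4% in the susceptible, 10.8% in the resilient and 10.0% in the control section. It was the first neuronal type there too, but its median share when held was 23.2% in the ketamine-treated, 31.0% in the susceptible, 22.5% in the resilient and 25.1% in the control section. No spot of cluster 7 was given to it whole.

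**Figure D2:**
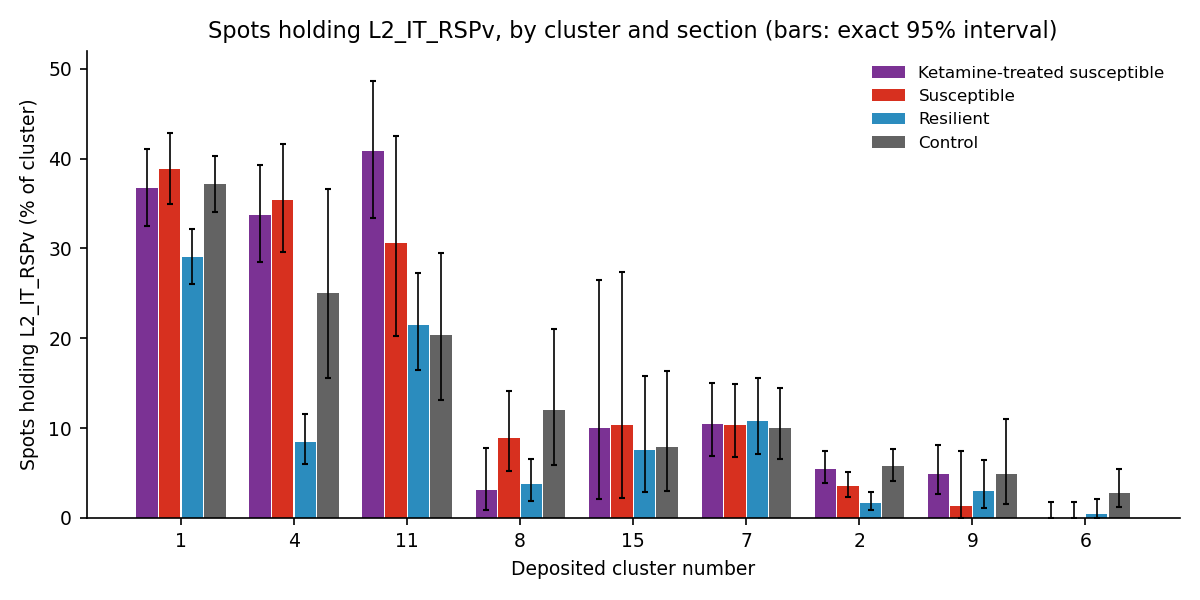
Percent of the spots of deposited clusters 1, 4, 11, 8, 15, 7, 2, 9 and 6 (horizontal axis) that held L2_IT_RSPv (vertical axis), by section, with exact 95% intervals as bars. The remaining clusters are not drawn. Clusters 1 and 11 stand above the other clusters drawn, as does cluster 4 except in the resilient section. Cluster 4 had 35.4% in the susceptible section against 8.45% in the resilient section, and cluster 6 held none in the ketamine-treated and susceptible sections.

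Within the cortical layer clusters the label was sparse and lay mostly in cluster 2, which L5_PT_RSP_ACA led in each section and where L6_CT_CTX and L5_IT_CTX, named for deep cortical layers, followed. Cluster 2 spots held it in 36 of 663 cases in the ketamine-treated, 27 of 761 in the susceptible, 13 of 766 in the resilient and 41 of 716 in the control section. The lowest was the resilient section, at 1.70% (0.907 to 2.88) of cluster 2 spots. Cluster 6 had L2_IT_RSP_ACA and L2_3_IT_CTX, both named for superficial layers, among its leading types. The label's own name gives a superficial layer too. Cluster 6 held L2_IT_RSPv in 0 of 209 spots in the ketamine-treated section, 0 of 213 in the susceptible, 1 of 265 in the resilient and 8 of 287 in the control. For counts of 0 the upper bound of the interval was 1.75% for the ketamine-treated section and 1.72% for the susceptible one. Cluster 9, with L5_PT_RSP_ACA, Astro, L2_IT_RSP_ACA and L5_IT_CTX in front, held it in 13 of 269 spots in the ketamine-treated, 1 of 73 in the susceptible, 6 of 200 in the resilient and 5 of 103 in the control section.

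Where the label was present, its median share over all sections was 38.5% of the spot. The same median was 47.2% for Oligo, 45.4% for Sst_Chodl and 41.4% for Astro, and 35.6% for CR, 35.5% for L2_IT_RSP_ACA and 31.4% for Pvalb. A large share was thus not particular to the label. The smallest share kept was 13.7% in the ketamine-treated, 14.2% in the susceptible, 11.7% in the resilient and 14.5% in the control section. All other spots stood at 0, so there is no value just outside the rule. The median share over holding spots was 44.3% in the ketamine-treated section (quartiles 31.4 and 55.8), 42.0% in the susceptible (31.9 and 56.5), 33.5% in the resilient (25.7 and 46.2) and 36.6% in the control (27.5 and 49.5). The 4 distributions overlapped widely, with the ketamine-treated and susceptible sections at the upper end and the resilient at the lower. The label took over 50% of the spot in 37.6% of holding spots in the ketamine-treated, 37.4% in the susceptible, 19.2% in the resilient and 24.7% in the control section. It was the highest share of its spot in 233 of 452 cases in the ketamine-treated section (51.5%, 46.8 to 56.2), 242 of 446 in the susceptible (54.3%, 49.5 to 59.0), 149 of 426 in the resilient (35.0%, 30.4 to 39.7) and 209 of 502 in the control (41.6%, 37.3 to 46.1).

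Some spots were given to the label whole. There were 60 such spots in the ketamine-treated section, or 13.3% of its holding spots (10.3 to 16.8), and 53 in the susceptible, or 11.9% (9.03 to 15.3). The resilient section had 28, or 6.57% (4.41 to 9.36), and the control 32, or 6.37% (4.40 to 8.88). Between these and the rest lay a gap, since the next lower share was 82.5% in the ketamine-treated, 81.2% in the susceptible, 78.3% in the resilient and 83.8% in the control section. Of the 173 whole spots, 69 lay in cluster 1, 50 in cluster 4, 20 in cluster 2 and 13 in cluster 11.

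**Figure D3:**
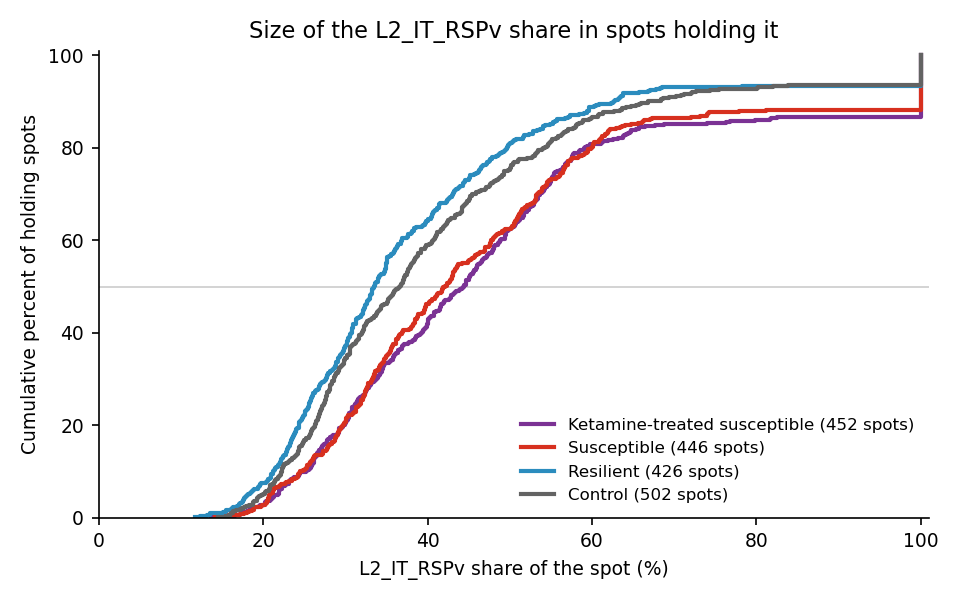
Cumulative percent of spots holding L2_IT_RSPv (vertical axis) against its share of the spot in percent (horizontal axis), 1 line per section. The lines of the ketamine-treated and susceptible sections lie to the right, with medians of 44.3% and 42.0%, against 33.5% in the resilient and 36.6% in the control section, and each line ends in a step at 100%.

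The label's spots were mostly shared with glia. A non-neuronal type was beside it in 66.6% of its spots in the ketamine-treated, 67.5% in the susceptible, 80.5% in the resilient and 83.5% in the control section. It was the only neuronal type of its spot in 259 spots of the ketamine-treated section (57.3%), 237 of the susceptible (53.1%), 213 of the resilient (50%) and 300 of the control (59.8%). Over all sections this was 1009 of 1826 spots. Glia were also frequent without the label. In cluster 1, Oligo was in 58.5% of holding and 61.6% of other spots, and Astro in 48.5% and 59.3%. How often other types were the only neuronal type of a spot outside the cortical layer clusters was not examined. The most frequent companies were Astro with Oligo in 249 spots, Oligo alone in 244, Astro alone in 243 and no other type in 173. Another glutamatergic type was beside it in 24.3% of spots in the ketamine-treated, 27.1% in the susceptible, 33.6% in the resilient and 20.1% in the control section. For a GABAergic type the values were 26.3% in the ketamine-treated, 27.8% in the susceptible, 32.6% in the resilient and 27.1% in the control section.

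To set the companions against their surroundings, the percent of holding spots that also held a type was divided by the percent among the other spots of the same section, weighted to the same clusters. Oligo, in 868 shared spots, had ratios of 0.98 in the ketamine-treated, 0.91 in the susceptible, 1.03 in the resilient and 1.00 in the control section. It was thus about as frequent beside the label as in other spots of the same clusters. Without that weighting its pooled ratio was 1.66, against 0.99 with it. Astro, in 847 shared spots, had ratios of 0.89 in the ketamine-treated, 0.81 in the susceptible, 0.87 in the resilient and 0.90 in the control section. Shares sum to 1 and a spot keeps few types, so these ratios are not independent of the label's own share.

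Among neuronal companions, Pvalb, named for parvalbumin interneurons, was the most frequent with 259 shared spots. It was beside the label in 7.96% of holding spots in the ketamine-treated, 8.07% in the susceptible, 22.3% in the resilient and 18.3% in the control section. The resilient and control sections stood apart from the ketamine-treated and susceptible ones. The weighted ratio was 0.86 in the ketamine-treated, 0.82 in the susceptible, 1.06 in the resilient and 1.16 in the control section. Sst_Chodl showed another order, beside the label in 13.3% of holding spots in the ketamine-treated, 9.19% in the susceptible, 5.63% in the resilient and 2.39% in the control section. Its weighted ratio was 0.83 in the ketamine-treated, 0.69 in the susceptible, 0.65 in the resilient and 0.55 in the control section. L5_PT_RSP_ACA was the retrosplenial type most often beside the label, in 174 spots, with ratios of 0.54 in the ketamine-treated, 0.58 in the susceptible, 0.81 in the resilient and 0.73 in the control section. L2_IT_RSP_ACA shared only 30 spots with it and L3_RSP_ACA only 13.

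No type with at least 20 shared spots had a ratio above 1.5 in all sections. Of these 16 types, 3 were under 0.67 in every section. CR had 78 shared spots and ratios of 0.55 in the ketamine-treated, 0.56 in the susceptible, 0.40 in the resilient and 0.38 in the control section. Meis2, a GABAergic class named for a transcription factor, had 44 shared spots and ratios of 0.37 in the ketamine-treated, 0.63 in the susceptible, 0.32 in the resilient and 0.43 in the control section. Micro, the microglia, had 33 shared spots and ratios of 0.06 in the ketamine-treated, 0.667 in the susceptible, 0.61 in the resilient and 0.45 in the control section. Some of these ratios rest on few spots. The resilient ratio of Meis2 came from 2 shared spots and the ketamine-treated ratio of Micro from 1. The susceptible ratio of Micro, from 12 shared spots, was only just under 0.67. The remaining frequent companions were NP_SUB, named for the subiculum, with ratios between 0.60 and 0.89, and Ndnf_HPF, an interneuron class of the hippocampal formation, with ratios between 0.51 and 0.91. Of the 66 other types, 51 were beside the label in some spot and 15 in none.

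**Figure D4:**
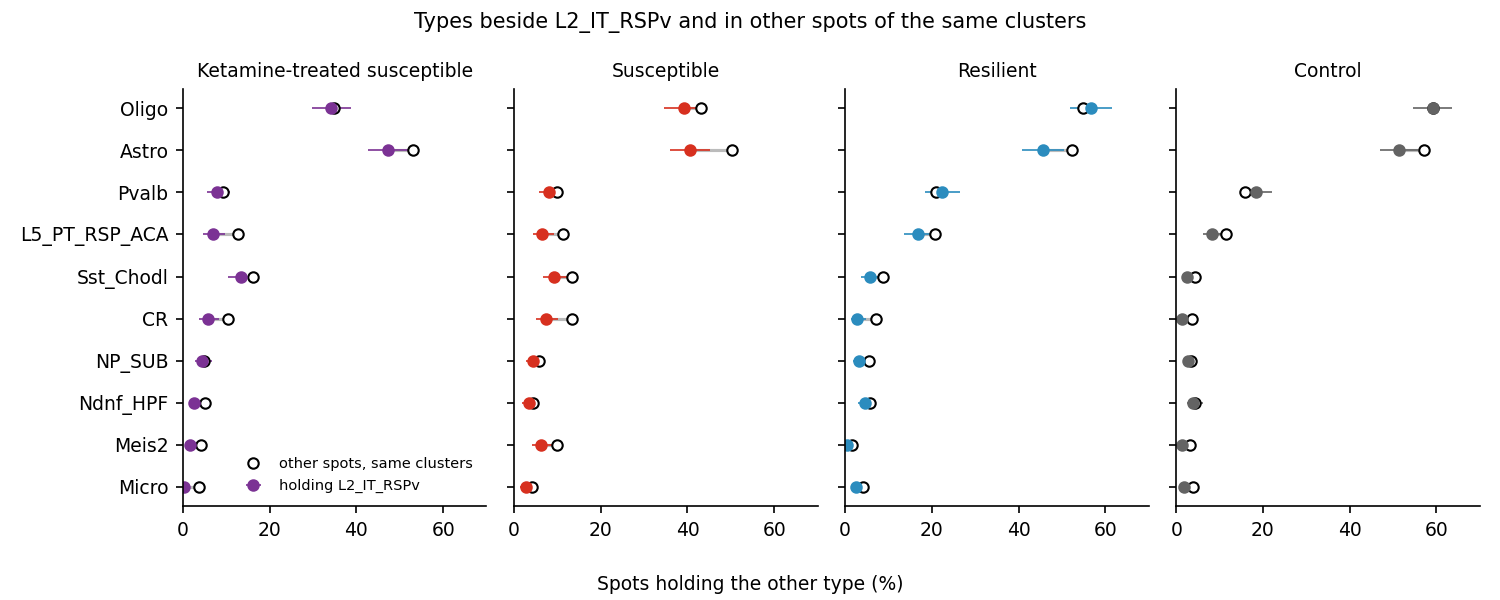
Percent of spots holding each frequent companion type, among spots with L2_IT_RSPv and among other spots of the same section weighted to the same clusters, 1 panel per section. Oligo and Astro lie far above the neuronal types in each panel, and Pvalb stands at 7.96% beside the label in the ketamine-treated section and 22.3% in the resilient section.

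Types of the cortical layers were nearly missing beside the label. A CTX-named type was in 10 of its spots in the ketamine-treated section (2.21%), 3 in the susceptible (0.673%), 10 in the resilient (2.35%) and 17 in the control (3.39%). In spots without the label a CTX-named type was present in 23.7% in the ketamine-treated, 21.4% in the susceptible, 23.9% in the resilient and 24.6% in the control section. Outside the cortical layer clusters 6 of 1675 holding spots had one, or 0.358%, against 2.35% of the spots there without the label. CTX-named types were thus scarce there with or without the label. Inside those clusters 34 of 151 holding spots had one, or 22.5% (16.1 to 30.0), against 64.9% in the spots there without the label. By section the inside values were 14.3% in the ketamine-treated, 10.7% in the susceptible, 40.0% in the resilient and 29.6% in the control section, from 49, 28, 20 and 54 spots.

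The same count for the other retrosplenial types inside the cortical layer clusters was 51.6% (48.7 to 54.5) for L2_IT_RSP_ACA, 60.5% (58.1 to 62.8) for L5_PT_RSP_ACA and 11.5% (5.65 to 20.1) for L3_RSP_ACA. The interval of L2_IT_RSPv lay below those of L2_IT_RSP_ACA and L5_PT_RSP_ACA and overlapped that of L3_RSP_ACA. Among 23 glutamatergic types with at least 20 such spots, the label ranked 5 from the lowest. With the type itself left out of the count, L2_3_IT_CTX had 10.4% and L5_IT_CTX 16.7%, both lower than the label. The other CTX-named types ranked were higher, from 29.5% for L6_CT_CTX to 58.3% for L5_6_IT_CTX. A low value was thus not particular to the label. Any other neuronal type was beside L2_IT_RSPv in 58.9% of its spots there, the lowest of 23 types ranked, against 78.2% for L3_RSP_ACA, 81.9% for L2_IT_RSP_ACA and 90.4% for L5_PT_RSP_ACA. Its median share in these spots was 48.0%, against 43.1% for L3_RSP_ACA, 36.3% for L2_IT_RSP_ACA and 32.5% for L5_PT_RSP_ACA. A larger share leaves less room for other types, and its part in this rank was not tested. What was not given to the label in the 126 of these spots that it did not fill went to non-neuronal types for 43.8% and to CTX-named types for 17.3%. In other spots of the cortical layer clusters, non-neuronal types made up 16.2% and CTX-named types 35.0%. Outside those clusters the remainder of 1527 spots looked much like other spots, with 69.8% non-neuronal against 66.5% and 17.7% GABAergic against 16.8%.

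The comparisons between groups are given as ratios of mean shares, with a type called where the ratio passed 1.5 in either direction. They rest on 1 section per group, so there is no replicate check and no p-value. A difference was also split into a part from unequal cluster proportions and a part from shares that differed inside clusters. Several comparisons share a section, so they are not independent of each other.

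Ketamine-treated susceptible against susceptible asks what accompanied the drug. Ketamine-treated spots averaged 6.36% and susceptible spots 6.20%, for a ratio of 1.03, and the label was not called. Of the types compared, 14.3% were called. Holding spots made up 13.0% of each section, with a ratio of 1.00 (0.888 to 1.13). The clusters moved in both directions, with cluster 11 adding 0.68 points and cluster 1 taking away 0.54, in sections where cluster 11 had 169 spots in the ketamine-treated against 72 in the susceptible animal.

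Susceptible against control gave 6.20% and 5.60%, a ratio of 1.11 that was not called, where 33.3% of types were called. The ratio was 0.92 without cluster 4 and 0.96 by holding spots, so its direction depended on both choices, and without cluster 1 it was 1.52. Cluster 4 contributed 1.57 points to the mean in the susceptible section and 0.29 in the control, on 254 and 72 spots. Ketamine-treated susceptible against control gave 6.36% and 5.60%, a ratio of 1.14, not called, where 27.3% of types were. It was 0.95 without cluster 4, 0.97 by holding spots and 1.80 without cluster 1. Both comparisons use the same control section.

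Resilient against control gave 4.03% and 5.60%, a ratio of 0.720 that was not called, where 39.1% of types were called. The part within clusters was −2.28 points and the part from cluster proportions 0.710 points, since the resilient section had more spots in clusters 4 and 11 but lower shares in clusters 1 and 4. With equal cluster weights the ratio was 0.61. Holding spots were 10.3% of the resilient section (9.34 to 11.2) and 13.4% of the control section (12.4 to 14.6), a ratio of 0.762 (0.675 to 0.861). Among the 13 clusters that had 20 or more spots in all sections, 5 were higher and 8 lower in the resilient section.

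Susceptible against resilient was the one comparison in which the label was called. Susceptible spots averaged 6.20% and resilient spots 4.03%, for a ratio of 1.54, where 43.5% of types passed the same threshold. The part within clusters was 3.34 points and the part from cluster proportions −1.18. Cluster 4 gave 1.52 and cluster 1 gave 1.24 points of the within part. The ratio was 1.85 with equal cluster weights, but 1.26 by holding spots and 1.24 without cluster 4, both under the threshold. Susceptible spots had the higher mean in 8 of the 13 clusters and the lower in 5. The leaving out of clusters 1 and 4 was chosen after their values had been seen.

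The deposited t-SNE map places spots by similarity in a measure not described in the sources used here, and only closeness was read from it. Of the 15 nearest spots of the same section, those around holding spots held the label in 34.2% of cases in the ketamine-treated, 32.2% in the susceptible, 24.9% in the resilient and 35.0% in the control section. Around the other spots it was 10.1% in the ketamine-treated, 10.1% in the susceptible, 8.77% in the resilient and 10.4% in the control section. Much of this contrast lay between clusters. Inside cluster 1 the value around holding spots was 39.8% against 35.5% around other spots in the ketamine-treated section, and 38.4% against 39.3% in the susceptible. It was 32.2% against 28.3% in the resilient and 43.6% against 35.5% in the control section. Inside cluster 1 the map thus set spots with and without the label close together, with ratios from 0.98 to 1.23.

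Inside clusters 4 and 11 the ratios ran from 0.94 to 1.51 and from 1.09 to 1.43. As a ratio, the contrast was wider inside the cortical layer clusters. There the percentages were lower and clusters 2, 6 and 9 were pooled, so differences between these clusters enter it. Neighbours of holding spots held the label in 18.8% of cases against 4.23% around other spots in the ketamine-treated section, 23.3% against 2.31% in the susceptible, 5.33% against 1.52% in the resilient and 17.2% against 4.42% in the control. At the same time, 15 of 49 such spots in the ketamine-treated section, 11 of 28 in the susceptible, 10 of 20 in the resilient and 14 of 54 in the control had no holding neighbour at all. With 50 neighbours in place of 15, the ratio of the values around holding and other spots was 3.33 against 4.44 in the ketamine-treated section, 4.54 against 10.1 in the susceptible, 1.29 against 3.51 in the resilient and 2.69 against 3.88 in the control. The width of the contrast thus depended on the number of neighbours, most of all in the susceptible and resilient sections, which had the fewest such spots.

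**Figure D5:**
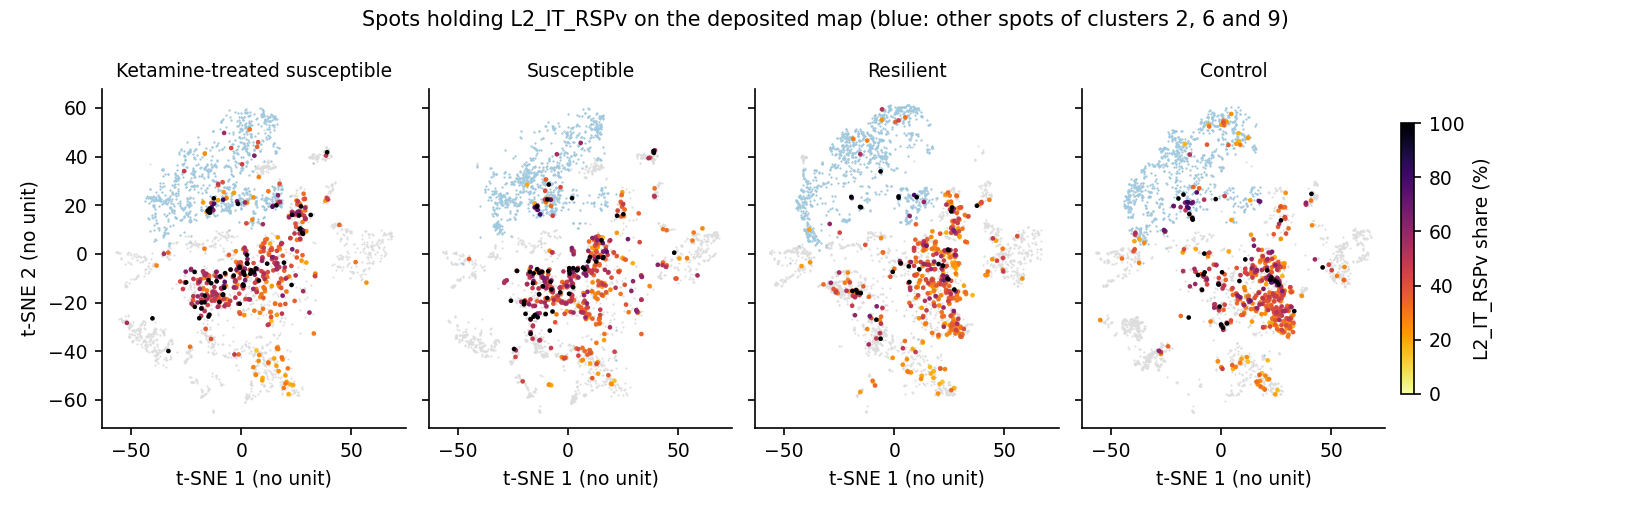
Deposited t-SNE coordinates (no unit) of all spots, 1 panel per section, with spots holding L2_IT_RSPv shown by their share and the other spots of clusters 2, 6 and 9 in blue. Most holding spots lie away from the blue areas, and around them 34.2% of neighbours held the label in the ketamine-treated section against 24.9% in the resilient section.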

How the data were processed

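Spatially barcoded slides of 4 brain sections were sequenced, and the build was mm10 per the submitters' processing notes. The authors deposited, per spot, the fraction given to each of 67 types and a cluster number. Fractions are shown here as percent. The sources used here give neither the deconvolution and its reference set nor the clustering method. A deposited table of t-SNE coordinates (other values, no unit) was joined by barcode: each of its suffixes carried the barcode set of exactly 1 section. The cluster numbers were taken as 1 clustering of all sections, which no source states. Gene counts and spot positions were not analysed here.

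Means, holding spots, cluster splits, companions and neighbours were computed with Python 3.11.15, numpy 2.4.6, pandas 2.3.3, scipy 1.17.1 and scikit-learn 1.9.0, and the split and companion ratio were tested on simulated data. In the split, a cluster with under 20 spots in either section counted wholly as cluster proportions. Types entered a comparison where either mean was at least 1%. Named were the RSP types, the 8 most frequent companions, types with at least 20 shared spots and a ratio over 1.5 or under 0.67 in all sections, types leading a named cluster, and clusters with at least 5% of the label's sum in any section; other names were chosen after values were seen. The label and these lists were chosen with earlier results of these data known.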

Additional observations from a re-analysis of the deposited data

How the results depend on the processing

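Of 73 alternative values for the main results, of which only some compare groups, 20 moved outside an interval set around the reported value. The other 53 stayed within that interval or, for counts of companion types, which have none, within 1.5 times the reported count. For ratios of mean shares the interval's width came from the counting error of holding spots. For parts of summed share and map ratios, the reported percentage was treated as a count of holding spots. The interval is a yardstick there, not the error of those values. Picking the cortical layer clusters by the 20% threshold returned clusters 2, 6 and 9 again, so those values could not move. A reversal was counted only for the called comparison, susceptible over resilient, and 0 were found. The uncalled ratios of susceptible over control and ketamine-treated susceptible over control did fall from above 1 to below 1 under some alternatives. The number of types under 0.67 in all sections was 4 without the weighting by cluster, against 3 with it. For the ratio of mean shares, the percent of holding spots gave 0.96 for susceptible over control, 0.97 for ketamine-treated susceptible over control and 1.26 for susceptible over resilient. Spots led by the label gave 1.26 for susceptible over control and 1.96 for susceptible over resilient. Equal cluster weights gave 0.61 for resilient over control and 1.85 for susceptible over resilient. Without cluster 4 the ratio was 0.92 for susceptible over control, 0.95 for ketamine-treated susceptible over control and 1.24 for susceptible over resilient. Without cluster 1 it was 1.18 for ketamine-treated susceptible over susceptible, 1.52 for susceptible over control, 0.85 for resilient over control, 1.78 for susceptible over resilient and 1.80 for ketamine-treated susceptible over control. Both omissions were chosen after seeing the data, and the cause of these shifts was not tested. The mean share in holding spots, in place of the median, was 48.9% in the ketamine-treated, 47.8% in the susceptible, 39.3% in the resilient and 41.6% in the control section, above the median in each. By number of spots, 95.3% of the label lay outside the cortical layer clusters in the resilient section. For single companion types, 11 of 30 alternative values moved, 8 of them from dropping the weighting by cluster. No paired analysis was possible because each group has 1 section, and for the same reason no replicate could be left out.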

Other observations

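In the cortical layer clusters the holding spots were divided, after the map had been seen, by whether at least 3 of their 15 nearest spots also held the label. There were 17 such grouped spots in the ketamine-treated section, 17 in the susceptible, 2 in the resilient and 25 in the control, and 59 of these 61 lay in cluster 2. Their median share was 79.8% in the ketamine-treated, 39.8% in the susceptible, 84.2% in the resilient and 66.8% in the control section. A CTX-named type was beside the label in 6 of the 61 grouped spots and in 28 of the 90 scattered ones. Another retrosplenial type was beside it in 22 of the grouped and 26 of the scattered spots. The dividing measure uses the label itself, so these values are a description, and which patch of cortex the grouped spots came from cannot be read from the files.

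The same spot barcodes recur across sections, and in this slide format a barcode marks a fixed place on an array. The ketamine-treated and susceptible sections shared 3304 barcodes, of which 53.2% had the same cluster number in both. The resilient and control sections shared 3199, with 25.8% in the same cluster, and the pairs across these 2 sets lay between 1.1% and 2.6%. Where a barcode held the label in the ketamine-treated section, it held it in the susceptible section in 147 of 432 cases (34.0%, 29.6 to 38.7), against 290 of 2872 (10.1%) where the ketamine-treated section lacked it. Among barcodes in cluster 1 of both sections it was 63 of 117 (53.8%, 44.4 to 63.1) against 63 of 168 (37.5%, 30.2 to 45.3). For the resilient section set against the control, the control held the label in 72 of 357 cases (20.2%) where the resilient section held it and in 12.7% where it did not. In cluster 1 of both it was 38 of 88 (43.2%) against 131 of 279 (47.0%). How the sections were laid on their arrays is not stated, and its part in these values was not tested.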
